A study of Homo sapiens with 4 samples.

Results

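The genes described here are 45 genes of the G2 and M phases of the cell cycle and of the mitotic spindle, picked by name for their known roles, out of 19775 genes that had a probe set naming them alone. They were measured on 4 Affymetrix U133 Plus 2.0 arrays of the breast cancer cell lines T-47D and MDA-MB-231, with 1 array per condition. Cells were treated for 24 h with 100 μM JPH203, an inhibitor of the amino acid transporter LAT1, or with Captisol at the same concentration, the cyclodextrin vehicle used as control. T-47D cells carry the estrogen and progesterone receptors, MDA-MB-231 cells are triple negative, and both lines came from ATCC and were grown in RPMI1640. Each gene was read from its brightest probe set, and it counted as measured in a line when its signal, a linear intensity on each array's own scale, reached 100 on at least 1 array of that line. By this rule 40 of the 45 genes were measured in T-47D and 44 in MDA-MB-231. PLK1, a kinase of mitotic entry, stayed below 100 on all 4 arrays. CENPE, KIF14, KIF15 and MKI67 stayed below it on both T-47D arrays. No array was repeated, so the ratios have no error, no test could be made, and the spread between cultures is unknown.

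These genes are transcribed late in the cell cycle. Cyclin B and the kinase CDK1 drive entry into mitosis, the spindle checkpoint holds chromosomes until every kinetochore is attached, and the anaphase-promoting complex with CDC20 then marks securin and the cyclins for destruction. Kinesins and microtubule-bound proteins build the spindle, and a further set closes the cleavage furrow. Outside G2 and M many of these genes are kept silent through a short promoter element, the CHR (cell cycle genes homology region), often near CCAAT boxes that bind the factor NF-Y. In tumour samples their RNA levels are widely read as a measure of proliferation. In a bulk array, fewer cells in G2 and M and less RNA per cell cannot be told apart.

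As facts on the arrays, 10831 to 11857 of the 54675 probe sets reached 100 on each. The T-47D control had the higher signal, by 2-fold or more, for all 14 luminal markers, and the MDA-MB-231 control for all 9 mesenchymal markers measured. ACTB, read at both ends of its transcript, had a 3-prime over 5-prime ratio of 1.72 with JPH203 and 1.39 in the control in T-47D cells, and 1.44 and 1.45 in MDA-MB-231 cells. The same ratio for GAPDH went the other way in T-47D, at 0.867 with JPH203 and 0.940 in the control, and was 1.01 and 0.987 in MDA-MB-231. The poly-A spike-in signal with JPH203 relative to control was 1.56 for T-47D and 0.927 for MDA-MB-231. Their part in the results was not tested, apart from a scaling to the spike-ins.

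The 5 genes that changed 2-fold in T-47D cells are shown here by their promoters, to set the elements known from this gene class beside the responses that follow. The windows run from 250 bases before the RefSeq start site to 50 bases after it (GRCh38.p14, gene strand, 5′ to 3′), and capitals mark CHR letters (TTTGAA or TTTAAA) and CCAAT, in either orientation.
HMMR, chr5:163460382-163460681, plus strand: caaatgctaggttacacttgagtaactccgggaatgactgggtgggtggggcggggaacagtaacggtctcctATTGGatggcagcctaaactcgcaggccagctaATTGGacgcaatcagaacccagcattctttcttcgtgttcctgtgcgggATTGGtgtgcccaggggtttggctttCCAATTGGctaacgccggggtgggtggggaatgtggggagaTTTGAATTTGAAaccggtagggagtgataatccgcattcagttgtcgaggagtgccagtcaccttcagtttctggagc
CDKN3, chr14:54396757-54397056, plus strand: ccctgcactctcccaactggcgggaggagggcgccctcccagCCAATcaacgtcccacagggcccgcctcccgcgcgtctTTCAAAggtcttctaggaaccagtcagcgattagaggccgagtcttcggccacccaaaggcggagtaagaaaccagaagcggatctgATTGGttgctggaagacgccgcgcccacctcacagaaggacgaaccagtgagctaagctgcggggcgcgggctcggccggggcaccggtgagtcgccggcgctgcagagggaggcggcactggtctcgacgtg
CKS2, chr9:89310945-89311244, plus strand: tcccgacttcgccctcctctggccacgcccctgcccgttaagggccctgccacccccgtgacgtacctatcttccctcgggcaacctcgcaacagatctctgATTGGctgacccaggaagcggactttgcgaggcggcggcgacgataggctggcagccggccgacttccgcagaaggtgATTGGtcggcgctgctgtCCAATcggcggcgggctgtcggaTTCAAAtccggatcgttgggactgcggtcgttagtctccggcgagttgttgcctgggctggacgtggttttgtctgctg
CDK1, chr10:60778081-60778380, plus strand: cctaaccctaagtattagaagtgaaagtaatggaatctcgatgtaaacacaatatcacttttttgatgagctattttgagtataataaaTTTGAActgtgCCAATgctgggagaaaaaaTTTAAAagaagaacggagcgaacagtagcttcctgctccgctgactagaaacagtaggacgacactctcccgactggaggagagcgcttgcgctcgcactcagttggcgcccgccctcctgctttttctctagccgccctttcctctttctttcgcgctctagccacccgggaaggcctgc
KIF11, chr10:92592880-92593179, plus strand: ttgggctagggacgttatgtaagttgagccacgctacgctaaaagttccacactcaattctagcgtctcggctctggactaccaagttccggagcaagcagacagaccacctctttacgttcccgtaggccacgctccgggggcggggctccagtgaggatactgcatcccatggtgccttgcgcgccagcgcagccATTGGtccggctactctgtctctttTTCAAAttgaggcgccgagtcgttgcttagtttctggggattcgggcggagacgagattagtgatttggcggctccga

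The HMMR promoter held 5 matches of CCAAT, of which a pair overlapped in 1 palindrome, and a tandem CHR that began at base -28 from the start. CKS2 held CHR letters that began at -29, and KIF11 at -28. CDKN3 and CDK1 had CHR letters farther upstream, at -170 in CDKN3 and at -161 and -131 in CDK1, and none within 50 bases of the start. Promoters were listed for 37 of the 45 genes, and not for AURKA, BUB3, TTK, TPX2, FOXM1, UBE2C, BIRC5 and RACGAP1. CHR letters stood in 86.5% of the 37 windows, against 24.0% of all 35116 promoters, and within 50 bases of the start in 67.6%, against 7.62%. The share of all promoters of protein-coding genes with CHR letters there was 5.89%. CCAAT stood in 75.7% of the 37 windows, against 34.6% of all promoters, and E2F-like letters (GGCGGG, which GC boxes also hold, or TTCGCG) in 86.5%, against 46.6% (58.2% for protein-coding genes). CHR and CCAAT matches overlapped in 1 of the 37 windows. In a window from -40 to -15, chosen after the positions were seen, CHR letters began in 15 of the 37 promoters, or 40.5%, against 3.01% of all promoters. A match is a string of letters and does not show a working element.

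**Figure D1:**
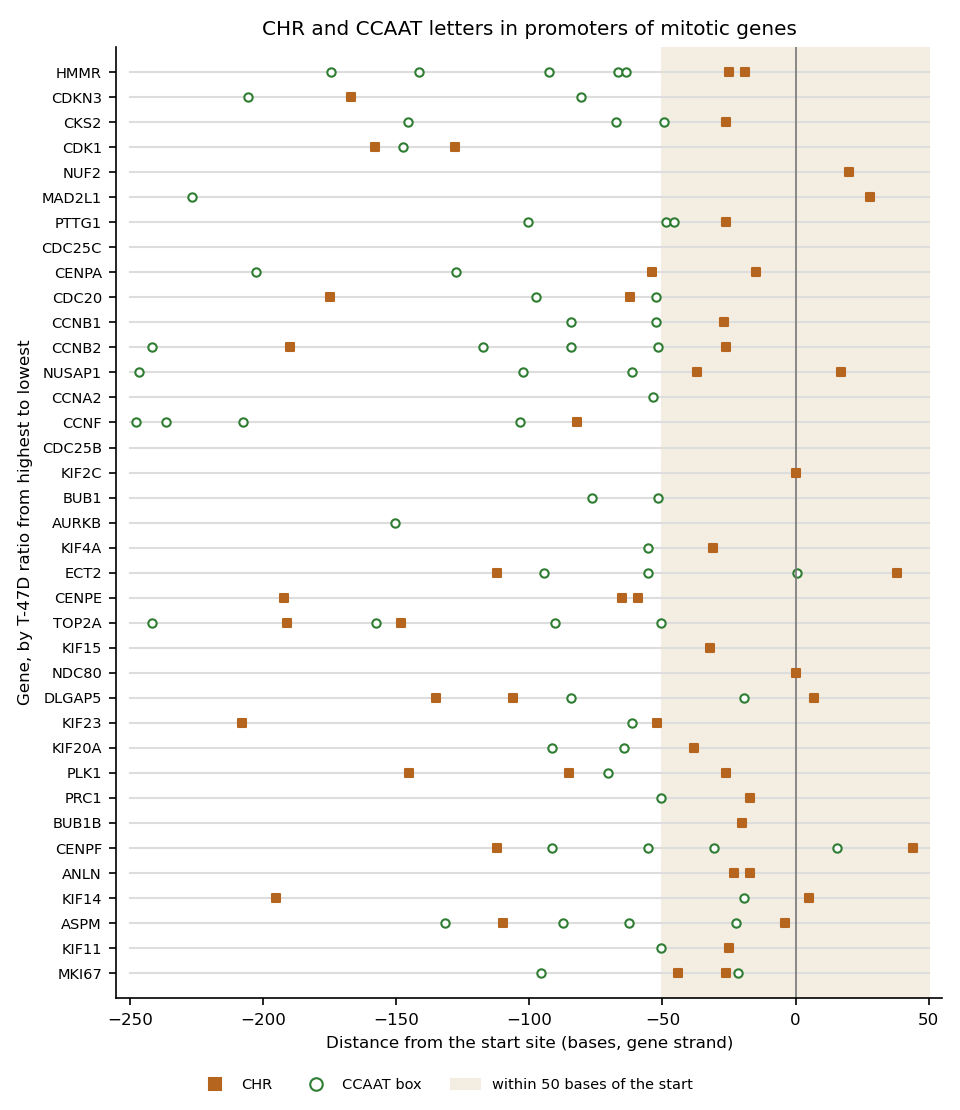
Positions of CHR letters (filled squares) and CCAAT letters (open circles) along the promoters of 37 mitotic genes, by distance from the start site in bases (x axis), with genes ordered by their T-47D ratio from highest to lowest (y axis). The shaded band covers 50 bases on either side of the start, where 25 of the 37 genes held CHR letters, among them HMMR, CKS2 and KIF11 but not CDKN3 or CDK1.

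In T-47D cells the mitotic genes moved apart with JPH203. HMMR, CDKN3, CKS2 and CDK1 rose at least 2-fold, KIF11 fell at least 2-fold, and the rest lay between. With the arrays scaled to the spike-ins instead, HMMR alone of these 5 was called. Over genes that then reached 100 on at least 1 array, the median log2 ratio of the mitotic genes was -0.42, against -0.70 for all genes. Without that scaling, 4 of the 38 genes that reached 100 on both T-47D arrays were called higher, or 10.5%, against 2.23% of all 6416 genes so measured. The 1 gene called lower was 2.63% of the 38, against 2.42% of all genes, so the share of falls was near that of the array as a whole. The ratio of JPH203 to control was over 1 for 26 of the 38 genes, or 68.4%, against 48.3% of all genes. The median log2 ratio of the 38 was 0.19, and that of all genes was -0.02.

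HMMR, the hyaluronan-mediated motility receptor that also binds spindle microtubules, had a signal of 1591 with JPH203 and 409 in the T-47D control. Its ratio of 3.89 was the highest of the 45 genes in either line. The other HMMR probe set had 770 with JPH203 and 218 in the control, a ratio of 3.53. Both probe sets thus rose at least 2-fold. In MDA-MB-231 cells HMMR had 303 with JPH203 and 346 in the control, a ratio of 0.874. There the other probe set lay on the other side of 1, with 150 with JPH203 and 138 in the control, a ratio of 1.09.

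Among the cell cycle regulators, 9 of 10 had a ratio over 1 in T-47D cells, against 48.3% of all genes. Of the 10, 3 were called higher, against 2.23% of all genes. CDKN3, a phosphatase that removes the activating phosphate from cyclin-dependent kinases, had 1781 with JPH203 and 628.5 in the control, a ratio of 2.83. Its other probe set gave 2.90, with 1426 with JPH203 and 491 in the control. CKS2, a small subunit of cyclin-dependent kinases, had 5236 with JPH203 and 2051 in the control, a ratio of 2.55. CKS2 rests on 1 probe set of the _s_at kind, which can bind more than 1 transcript, and it was not called after quantile normalization. CKS1B, its close relative and no member of the 45, had 5836 with JPH203 and 2433 in the control, a ratio of 2.40. The files do not say how far the probes of such relatives cross-react.

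CDK1, the kinase of mitotic entry, had 3069 with JPH203 and 1328 in the T-47D control, a ratio of 2.31. Its other probe sets above the minimum gave 1.91, with 1277 and 670 in the same order, and 1.58, with 815.5 and 517, so averaging over probe sets took CDK1 below the threshold. The cyclins that partner CDK1 had lower ratios. CCNB1 had 2670 with JPH203 and 1771 in the control, a ratio of 1.51, CCNB2 1.49 and CCNA2 1.42, with 1.04 on the other CCNA2 probe set. CDC25C and CDC25B, phosphatases that activate CDK1, had ratios of 1.67 and 1.21, and CCNF, cyclin F, which acts in a ubiquitin ligase, 1.40. FOXM1, a transcription factor that activates G2 and M genes, was the exception among the regulators, with 119 with JPH203 and 168 in the control, a ratio of 0.712 from 1 _x_at probe set.

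The 5 genes of the spindle checkpoint and the anaphase-promoting complex, kinases aside, all had ratios over 1 in T-47D cells. The share of all genes over 1 was 48.3%. None of the 5 was called, where 2.23% of all genes were called higher and 2.42% lower. MAD2L1, which carries the checkpoint signal, had 789.5 with JPH203 and 424 in the control, a ratio of 1.86, and 1.99 on its other probe set. PTTG1, securin, had 5110 with JPH203 and 2928.5 in the control, a ratio of 1.75. UBE2C, the conjugating enzyme of the complex, was at 1.54, CDC20, its activator, at 1.51, and BUB3, a checkpoint protein, at 1.18, with 1596 with JPH203 and 1355.5 in the control. The mitotic kinases were nearer to 1. TTK, the checkpoint kinase MPS1, had 182 with JPH203 and 163 in the control, a ratio of 1.11. The Aurora kinases AURKA and AURKB, which act at spindle poles and centromeres, had ratios of 1.11 and 1.04, with 1.34 on another AURKA probe set. BUB1 had 1.05, while BUB1B, the checkpoint kinase BubR1, had 0.764, with 205 with JPH203 and 268 in the control.

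The structural genes of the kinetochore and spindle lay on both sides. NUF2 and NDC80 are partners in the same kinetochore complex. NUF2 had 292 with JPH203 and 146 in the T-47D control, a ratio just under the threshold at 1.998. NDC80 had 152 and 171 in the same order, a ratio of 0.888. The centromere protein CENPF had 141 with JPH203 and 224 in the control, a ratio of 0.628, and its other probe sets were below 100 on both arrays. CENPA, the centromeric histone, had 132 with JPH203 and 86.7 in the control, so its ratio of 1.52 rests on a control signal below the minimum. NUF2 and NDC80 thus lay on either side of 1, and of the 3 kinetochore genes measured on both arrays NUF2 alone was over 1.

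Of the kinesins, the motors of the spindle, KIF11 was the gene called lower, with 123.5 with JPH203 and 279 in the T-47D control, a ratio of 0.443. KIF11 was read from 1 probe set and was not called at a minimum signal of 200. KIF2C, which takes microtubules apart, had 456 with JPH203 and 393 in the control, a ratio of 1.16. KIF4A and KIF20A had ratios of 1.03 and 0.837, and KIF23 had 97.6 with JPH203 and 111 in the control. ASPM, a spindle pole protein, had 233 with JPH203 and 449 in the control, a ratio of 0.520, just outside the threshold. Its other probe sets had 64.6 with JPH203 and 170 in the control, and 77.4 and 86.2 in the same order. ASPM was called lower with the mean of the probe sets that reached the minimum. Among the other spindle proteins, NUSAP1 had a ratio of 1.44, TPX2 1.01, DLGAP5 0.887 and PRC1 0.785.

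The cytokinesis genes also lay on both sides of 1 in T-47D cells. BIRC5, survivin, a subunit of the chromosomal passenger complex, had 1391 with JPH203 and 791.5 in the control, a ratio of 1.76, and 1.81 on another probe set. Its probe sets below 100 on both arrays had 85.8 with JPH203 and 89.1 in the control, and 33.9 and 28.2 in the same order. ANLN, anillin, which links actin and septins at the cleavage furrow, had 507 with JPH203 and 817 in the control, a ratio of 0.621, and 0.655 on another probe set. RACGAP1 and ECT2, which position the furrow through RhoA, had ratios of 1.08 and 0.966. TOP2A, topoisomerase II alpha, had 691.5 with JPH203 and 751 in the control, a ratio of 0.921. MKI67, the Ki-67 antigen, was below the minimum on both arrays, with 23.4 with JPH203 and 59.5 in the control, so no ratio is read there. Where a gene had a further probe set at the minimum on both T-47D arrays, that probe set lay on the same side of 1 as the brightest in 16 of 16 cases, over 13 genes, and the widest gap between probe sets was 1.46-fold, in CDK1.

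**Figure D2:**
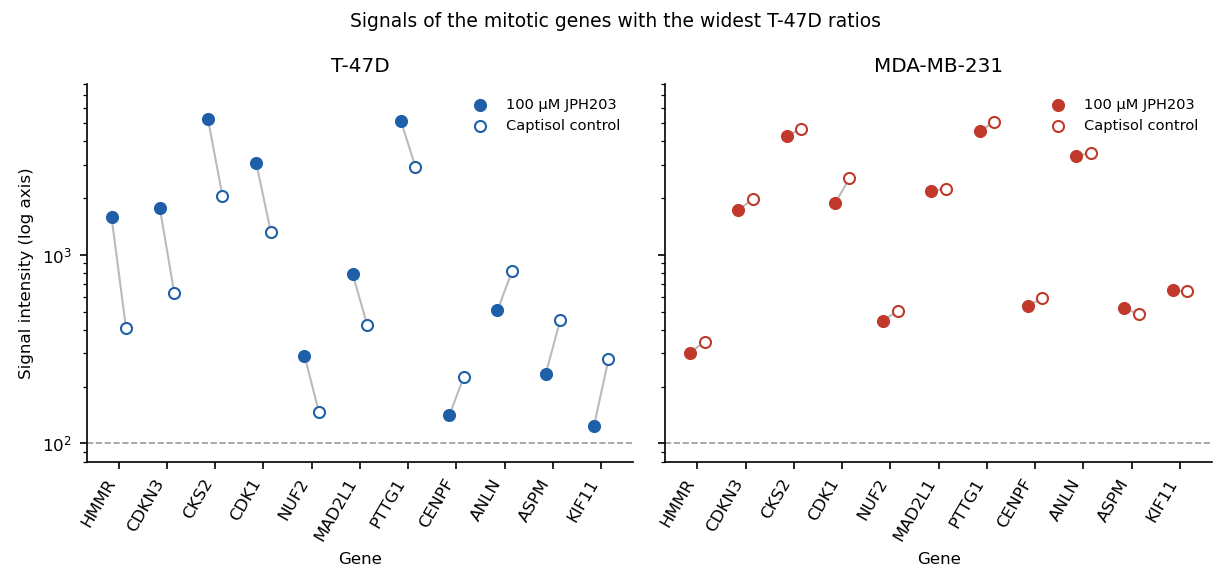
Signal intensity (y axis, log scale) of 11 mitotic genes with high or low ratios in T-47D cells (x axis), 1 array per point. T-47D is on the left and MDA-MB-231 on the right, with the minimum of 100 dashed. Filled points are 100 μM JPH203 and open points the Captisol control. Despite the title, the genes drawn are not a full ranking. BIRC5 and CDC25C, at ratios of 1.76 and 1.67, are not drawn, though wider on the log scale than ANLN and CENPF. In T-47D cells HMMR lies at 1591 with JPH203 and 409 in the control and KIF11 at 123.5 and 279, whereas the points of each gene lie close together in MDA-MB-231 cells.

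The ratios in T-47D cells went with the genomic length of the genes. Across the 38 genes, which share the same pair of arrays and are not independent, Spearman's rho between length and log2 ratio was -0.54, and over all 6416 genes it was -0.29. The 19 shortest genes, of 4.22 to 28.5 kb, had a median log2 ratio of 0.57, and 16 of them were over 1. The 19 longest, of 29.4 to 131 kb, had a median of 0.02, and 10 of them were over 1. KIF11, ASPM, ANLN and CENPF, with the lowest ratios of the 38, were 61.4 to 63.9 kb long. HMMR at 31.3 kb and CDC25C at 53.1 kb were long genes with ratios well over 1, and FOXM1 at 19.5 kb a short gene with a ratio under 1. After the trend on length over all genes was taken out, rho was -0.39 across the 38 genes and 0.00 across all genes. HMMR, CDKN3, CKS2, CDK1 and KIF11 were still called, and NUF2 was called higher as well. The length of the messenger RNA was not used here. In the same pair of arrays the 3-prime over 5-prime ratio given above was higher with JPH203 for ACTB and lower for GAPDH, and their part in the length trend was not tested.

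**Figure D3:**
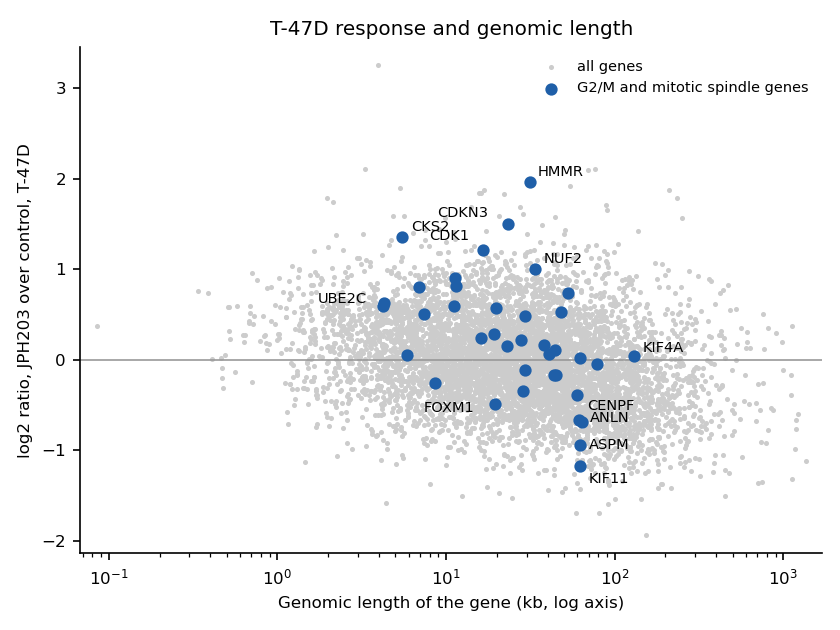
log2 ratio of JPH203 over control in T-47D cells (y axis) against genomic length in kb on a log axis (x axis), for the 38 mitotic genes (blue) and all genes (grey) that reached 100 on both arrays. The 19 shortest mitotic genes have a median of 0.57 and the 19 longest of 0.02, with KIF11, ASPM, ANLN and CENPF lowest.

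In MDA-MB-231 cells no mitotic gene was called. Of the 43 genes that reached 100 on both arrays, 0 were higher and 0 lower by 2-fold, where 0.0885% of all 6777 genes were higher and 0.0148% lower. Most lay slightly under their control signal. The ratio was under 1 for 35 of the 43 genes, or 81.4%, against 51.5% of all genes, with a median log2 ratio of -0.11 for the 43 and -0.01 for all genes. Scaled to the spike-ins instead, and over genes that reached 100 on at least 1 array, the median of the mitotic genes was -0.01 and that of all genes 0.11.

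The lowest ratios in MDA-MB-231 cells were those of MKI67 and CDK1. MKI67 had 565 with JPH203 and 849 in the control, a ratio of 0.666, and its other probe sets above the minimum gave 0.804, 0.806 and 0.923. CDK1 had 1874 with JPH203 and 2542 in the control, a ratio of 0.737, and 0.818 and 0.936 on its other probe sets above the minimum. These were the only genes of the 43 outside the range of 0.778 to 1.32 that held 95% of all genes. CDC20 followed, with 1992 with JPH203 and 2522 in the control, a ratio of 0.790. CCNF had 97.8 with JPH203, below the minimum, and 126 in the control. The highest ratio was that of CDC25B at 1.17, then ASPM at 1.08 and ECT2 at 1.06. The 5 genes of the checkpoint and the anaphase-promoting complex, kinases aside, lay under 1, at 0.790 to 0.973. All 5 kinetochore genes did so too, at 0.831 to 0.912. Of the checkpoint kinases, BUB1 and TTK were not under 1, at 1.02 and 1.00, and BUB1B was at 0.862. In the other roles, 8 of 9 regulators, 3 of 5 kinases, 6 of 7 kinesins, 4 of 6 spindle proteins, 2 of 4 cytokinesis genes and both chromosome proteins were under 1. Of 25 further probe sets at the minimum on both arrays, 15 lay on the same side of 1 as the brightest and 10 on the other, so the side of 1 was not settled for single genes.

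**Figure D4:**
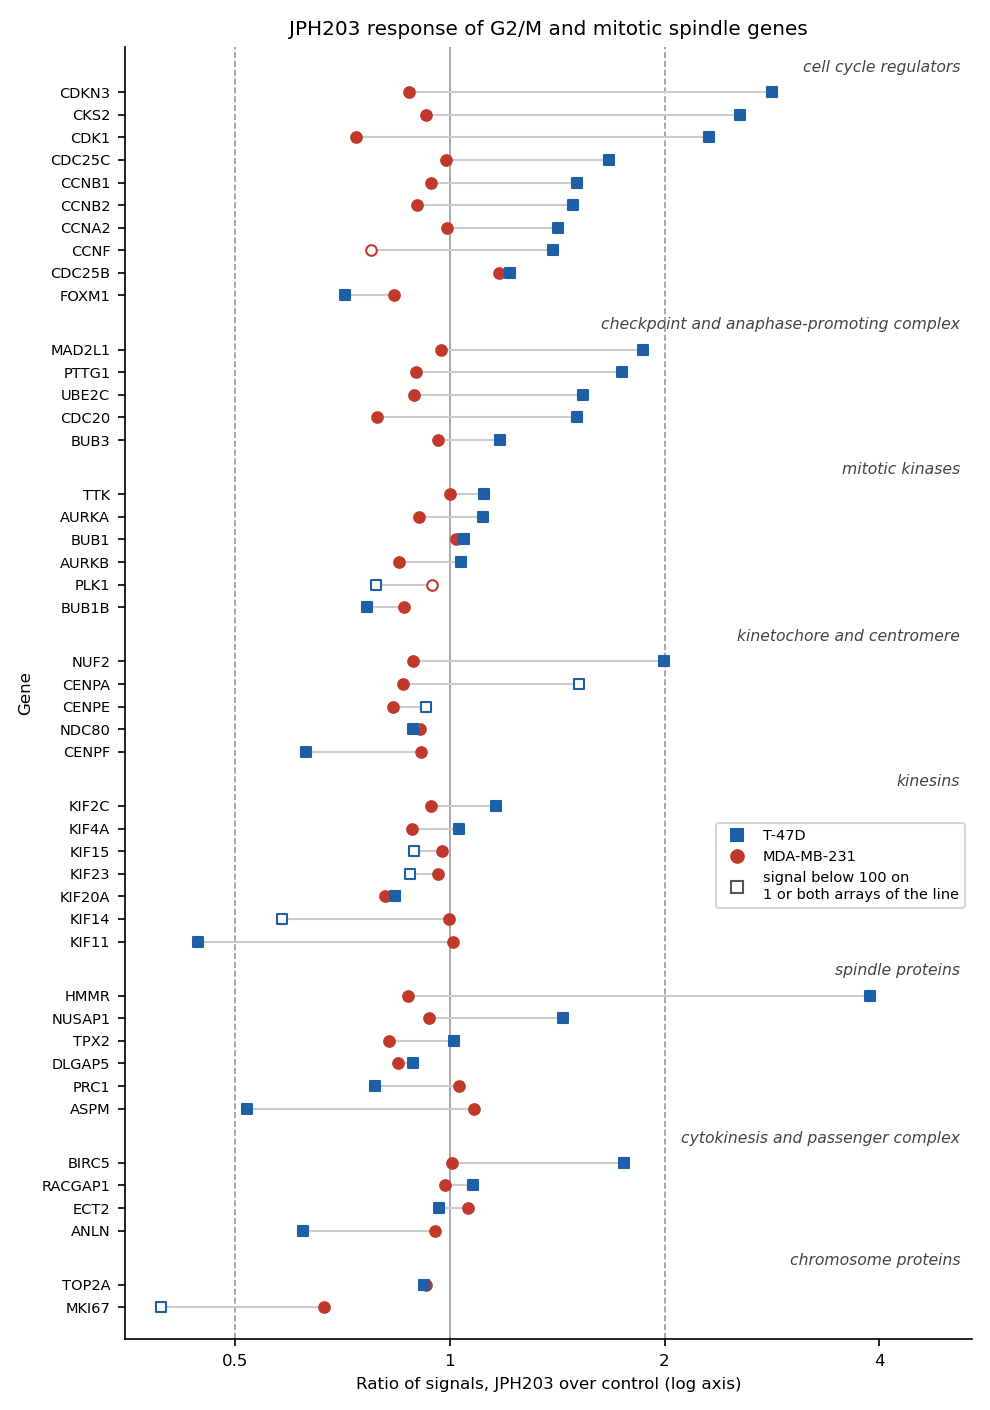
Ratio of the signal with JPH203 to that of the control on a log axis (x axis) for each of the 45 genes by role (y axis), in T-47D cells (blue squares) and MDA-MB-231 cells (red circles), 1 array per condition. Dashed lines mark 0.5 and 2, and open symbols a signal below 100 on 1 or both arrays of the line. HMMR is at 3.89 and KIF11 at 0.443 in T-47D cells, while the MDA-MB-231 values lie between 0.666 and 1.17.

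Over the 37 genes that reached 100 on every array, 21 had a ratio over 1 in T-47D cells and under 1 in MDA-MB-231 cells. Of the others, 8 were under 1 in both lines, 4 over 1 in both, and 4 under 1 in T-47D cells alone. How all genes fell into these classes was not counted. Taken line by line, 48.3% of all genes were over 1 in T-47D cells and 51.5% under 1 in MDA-MB-231 cells. The SD of the log2 ratios among the 37 mitotic genes was 0.68 in T-47D and 0.13 in MDA-MB-231. Over all genes that reached 100 on both arrays of the line, it was 0.51 in T-47D and 0.20 in MDA-MB-231, so all genes also spread more widely in T-47D. The difference between the lines was not tested.

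In the control arrays the mitotic genes were mostly higher in MDA-MB-231 than in T-47D cells. Of the 44 genes that reached 100 on 1 or both control arrays, 29 had at least 2 times the T-47D signal in MDA-MB-231, or 65.9%, against 23.5% of 8294 genes in all, and 0 were 2-fold lower, against 24.3%. With 100 required on both arrays, 24 of 39 genes were 2-fold higher, against 16.3% of 5688 genes, and 0 were lower, against 16.1%. The median log2 ratio, MDA-MB-231 over T-47D, was 1.49 for the 44 genes and 0.00 for all genes. With 100 required on both arrays, the median was 1.39 for the 39 genes and 0.02 for all genes. With 1 array per line, differences between lines and between cultures cannot be told apart.

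BUB1, a checkpoint kinase, was at 1359 in MDA-MB-231 against 109 in T-47D, a ratio of 12.4, the widest among the genes above the minimum in both. The T-47D signal was close to the minimum of 100. The next BUB1 probe set had 155 in MDA-MB-231 against 25.3 in T-47D, below the minimum. MAD2L1 had 2243 in MDA-MB-231 against 424 in T-47D, and NDC80 995 and 171 in the same order. MKI67 had 849 in MDA-MB-231 against 59.5 in T-47D, below the minimum, so the size is not read. All 5 kinases measured, all 7 kinesins and all 5 kinetochore genes passed 2-fold, each higher in MDA-MB-231. KIF14, KIF15, CENPA and CENPE were below 100 in the T-47D control, so they counted through MDA-MB-231 alone and the size is not read. With 100 required on both control arrays, 5 of 5 kinesins and 3 of 3 kinetochore genes passed. The kinesins KIF23, KIF4A and KIF2C had ratios of 4.83, 4.53 and 3.58. Genes at similar levels in the lines were ECT2, with 1032 in MDA-MB-231 against 1004.5 in T-47D, ASPM, with 483 and 449, and RACGAP1, with 1542 and 1241. HMMR and CCNF were the measured genes that were lower in MDA-MB-231 cells, HMMR with 346 against 409 and CCNF with 126 against 148 in T-47D cells. Among the regulators, FOXM1 had 376 in MDA-MB-231 against 168 in T-47D, and CDKN3 1976 against 628.5. ANLN, at 3485.5 against 817, was the 1 cytokinesis gene past 2-fold. The cyclins CCNB1 and CCNB2 had ratios of 1.74 and 1.41, and CCNA2, cyclin A2, 4.22. Of 17 further probe sets above the minimum in both control arrays, 16 lay on the same side of 1 as the brightest.

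**Figure D5:**
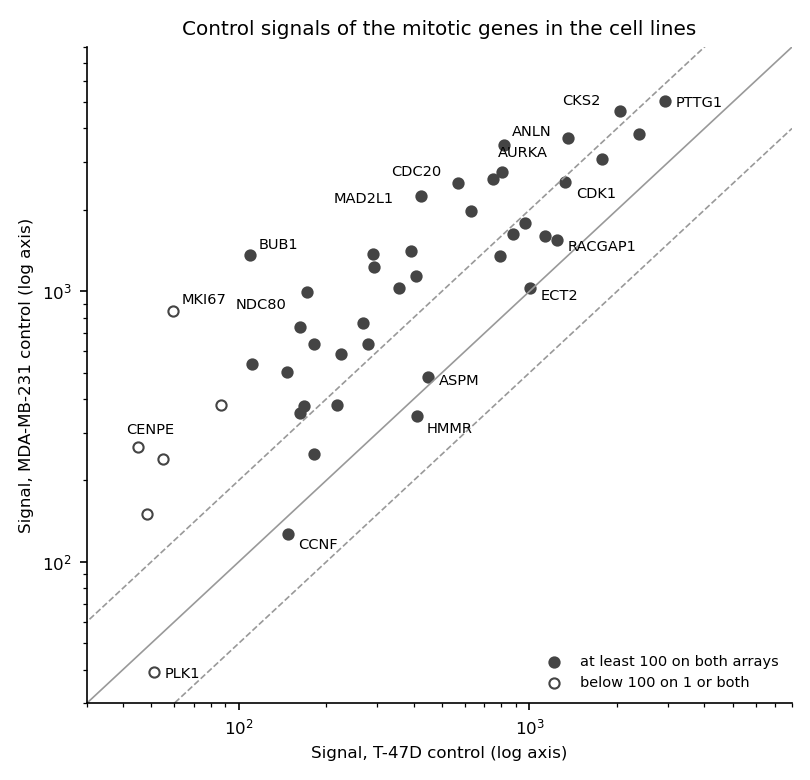
Signal of the 45 genes in the MDA-MB-231 control (y axis) against the T-47D control (x axis), both on log axes, 1 array each. The solid line marks equal signals and the dashed lines a 2-fold difference, with open points below 100 on 1 or both arrays. Most genes lie above the upper dashed line, BUB1 at 1359 and 109 among them, while HMMR and CCNF lie just below the solid line.

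Other genes of mitosis, a list of 76 with condensins, further kinetochore and centromere proteins, kinesins and regulators, moved less in T-47D cells. Of 51 that reached 100 on both arrays, CKS1B was called higher, or 1.96%, near the 2.23% of all genes, and 0 were called lower, against 2.42%, 28 had a ratio over 1, and the median log2 ratio was 0.08. In MDA-MB-231 cells 0 of 69 were called, 51 had a ratio under 1, and the median was -0.10. In the control arrays, with 100 on at least 1, 44 of 70 passed 2-fold with MDA-MB-231 higher, or 62.9% against 23.5% of all genes. With T-47D higher there were 2, or 2.86% against 24.3%. With 100 required on both control arrays, 31 of 55 were higher in MDA-MB-231, or 56.4% against 16.3%, and 2 in T-47D, or 3.64% against 16.1%. Genes of DNA replication, the preceding phase, stood on the other side in T-47D cells, where 0 of 26 were called higher and 4 lower (MCM2, MCM4, RRM2 and UHRF1, at ratios of 0.308 to 0.462), or 15.4% against 2.42% of all genes, 21 had a ratio under 1, and the median was -0.37. In MDA-MB-231 cells the 41 replication genes measured had a median of -0.07, close to that of the mitotic genes. On the control arrays, with 100 on both, 14 of 29 replication genes were also 2-fold higher in MDA-MB-231, or 48.3% against 16.3% of all genes. The 2 that were 2-fold higher in T-47D were 6.90%, against 16.1%.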

How the data were processed

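RNA of 2 breast cancer cell lines, each with JPH203 or Captisol for 24 h, was hybridised to 4 arrays, 1 per condition. The authors deposited linear signal intensity values per probe set, made with GCOS per the submitters' processing notes. Its version and settings are not given in the sources used here. With 2% of values trimmed at either end, every array averaged 100, which global scaling gives, and no normalization between arrays is stated. Of 54675 probe sets, 41097 named 1 gene in the platform annotation, and 41043 of these were matched by identifier to RefSeq (GRCh38.p14), which also gave genomic lengths and promoter sequences.

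Ratios were taken between arrays and called at 2 or 0.5 where both arrays reached 100 (for control arrays also where 1 did). The brightest probe set was that with the highest mean signal over the 4 arrays. All 45 genes are named, with full values for those called and for the extremes of each role in T-47D cells, and the rest by ratio or range. The members and lists were chosen with earlier results of these data known. The code that makes the calls was tested on simulated data with known ratios, which says nothing of the spread between cultures. Alternatives covered scaling, gene length, pseudocount, minimum, threshold and probe set. The number of arrays limits the precision. The tools were matplotlib 3.10.9, statsmodels 0.14.6, pandas 2.3.3, Python 3.11.15, scipy 1.17.1 and numpy 2.4.6.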

Additional observations from a re-analysis of the deposited data

Results flagged for a closer look

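Each of the 5 mitotic genes called in T-47D cells was on the other side of 1 in MDA-MB-231 cells by its brightest probe set. All 4 signals of each gene were at or above 100. These genes were picked by their T-47D ratios, so a wide difference between the lines was partly fixed by that choice. In MDA-MB-231 cells 35 of 43 mitotic genes, or 81.4%, had a ratio under 1. The log2 ratio of JPH203 over control in T-47D cells minus that in MDA-MB-231 cells was 2.15 for HMMR, 1.70 for CDKN3, 1.65 for CDK1, 1.46 for CKS2 and -1.19 for KIF11. The MDA-MB-231 ratio of KIF11 was 1.01 from 1 probe set, too close to 1 to settle its side. Those of the other 4 were 0.737 to 0.926. The other HMMR probe set, also above 100 on all 4 arrays, had a ratio of 1.09 in MDA-MB-231 cells, so the side of 1 was not settled there. These differences were not tested, since each condition has 1 array.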

How the results depend on the processing

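Under 12 other scalings, minimum signals and choices of probe set, HMMR was called higher in T-47D cells every time and CDKN3 in 11. CDK1 was called in 9, CKS2 in 9 of the 11 that could measure it and KIF11 in 10. Scaling to the poly-A spike-ins left 1 gene higher, HMMR, and 1 lower, ANLN, since KIF11 then fell below the minimum. The median of all genes there was -0.70 and that of the mitotic genes -0.42, over genes that reached 100 on at least 1 array. A minimum of 200 left 0 lower, and the mean of the probe sets that reached the minimum gave 2 lower. At 1.5-fold, 12 of 38 genes were higher in T-47D cells (31.6%, against 11.6% of all genes), 4 were lower (10.5%, against 13.6%), and 1 of 43 was lower in MDA-MB-231 cells (2.33%, against 0.31%). At 3-fold, 1 was higher (2.63%, against 0.343%) and 0 lower in T-47D cells. Of the control arrays, 29 genes passed 2-fold with MDA-MB-231 higher, and 44 after scaling to the spike-ins, which moved the median of all genes to 1.83. The other settings at 2-fold gave 21 to 31, and 0 were 2-fold higher in T-47D cells under any. At 1.5-fold 37 genes and at 3-fold 20 genes were higher in MDA-MB-231, with no share of all genes taken at these thresholds. Of the 45 genes, 35 had a probe set other than _s_at and _x_at, and by these 24 reached 100 on a T-47D array and 28 on an MDA-MB-231 array. Signals near 100 and 1 array per condition limit what can be told.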

Other observations

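On the JPH203 arrays the order of the lines differed from that of the controls for some mitotic genes. CDK1 was at 1874 in MDA-MB-231 against 3069 in T-47D with JPH203, and at 2542 against 1328 on the control arrays. CDKN3 was at 1729 in MDA-MB-231 against 1781 in T-47D with JPH203, and at 1976 against 628.5 on the control arrays. CCNB2, CDC25C, PTTG1, UBE2C, CKS2 and BIRC5 changed order too. With JPH203 their ratios, MDA-MB-231 over T-47D, were 0.819 to 0.976. HMMR, already lower in the MDA-MB-231 control, was at 303 in MDA-MB-231 against 1591 in T-47D with JPH203. Over all measured mitotic genes the median log2 ratio with JPH203, MDA-MB-231 over T-47D, was 1.30. The 11 measured genes without CHR letters within 50 bases of the start had a median log2 ratio of 0.48 in T-47D, and the 21 with them of 0.04, given with no test.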
